A study of Mus musculus with 12 samples.

Results

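Hyaluronan is a long, unbranched sugar polymer of the extracellular matrix that synthases in the plasma membrane build from UDP-glucuronic acid and UDP-N-acetylglucosamine and push out of the cell as they build it. Outside the cell it binds the large proteoglycans versican and aggrecan, link proteins lock these onto the chain, the receptor CD44 ties the chain to the cell surface, and hyaluronidases cut it. In fat, hyaluronan is part of the loose matrix around stromal cells, and fibroblast-like adipocyte precursors are among the cells that make it. The genes described here are the synthases Has1, Has2 and Has3, the link proteins Hapln1, Hapln3 and Hapln4, the proteoglycans Vcan (versican) and Acan (aggrecan), the receptor Cd44 and the hyaluronidase Hyal2. They were chosen by symbol and make up 10 of the 31099 genes in the count table. In the edgeR analysis 8 of the 10 had enough counts to be tested, while Has3 and Hapln4 did not.

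The series measured poly(A) RNA in bulk from cells sorted from 2 fat depots, inguinal white fat and the fat that surrounds the thoracic aorta (perivascular fat), of wild-type CD-1 pups, 3 days old, males and females mixed. The 4 groups, of 3 libraries each, are perivascular progenitors, perivascular preadipocytes, inguinal progenitors sorted as DPP4+ and inguinal preadipocytes sorted as ICAM1+. None of the groups carries an engineered allele or received a treatment, per the labels. Each library holds cells of a pool of mice, and libraries with the same number come from the same pools. The gates of the perivascular sorts were not given in the sources used here, so a difference between depots and a difference between sort gates cannot be told apart. In bulk RNA, fewer cells of a type and less RNA per cell cannot be told apart either.

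Between 15614628 and 25674461 counts were assigned to genes per library, so 1 count was worth 0.0387 to 0.0820 CPM (counts scaled to the library total and corrected by TMM factors). Levels below are such CPM, and where genes are compared with each other they are divided by exon length in kilobases (CPM per kb). Exon length is the merged length of all annotated exons of a gene, so levels per kb and shares built on them depend on the annotation. Dpp4, a progenitor surface marker, was at 1510 ± 72.7 CPM (SD, n = 3) in the DPP4+ cells and 32.04 ± 4.42 in the ICAM1+ cells, and in perivascular fat it was at 89.4 ± 7.57 in progenitors and 5.08 ± 2.25 in preadipocytes. Icam1 was highest in the ICAM1+ preadipocytes at 497 ± 11.1 CPM, and in the perivascular cells it was higher in progenitors (96.0 ± 6.03) than in preadipocytes (39.5 ± 11.9). Perivascular progenitor library 1 stood closest to perivascular preadipocyte library 1 by correlation over all tested genes, and the other 11 libraries stood closest to one of their own group.

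In both comparisons between depots the perivascular cells had less Has1, Has2, Cd44 and Vcan RNA and more Hapln1 RNA. Among progenitors 1 of the 8 tested genes was called higher and 4 lower in perivascular fat, beside 24.9% of all 18855 tested genes called in either direction (13.0% higher, 11.8% lower; a call is an adjusted p under 0.05). Among preadipocytes 1 was called higher and 5 lower, beside 44.9% of all genes (23.5% higher, 21.4% lower). The median log2 fold change of the 8 genes was -0.87 between progenitors and -2.09 between preadipocytes, against 0.05 and 0.04 over all tested genes. Within perivascular fat, preadipocytes had 4 of the 8 genes lower than progenitors and 0 higher, beside 32.9% of all genes called (16.8% higher, 16.1% lower). Within inguinal fat 1 gene was called higher (Hapln1) and 1 lower (Has1), beside 17.9% (9.34% higher, 8.61% lower).

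**Figure D1:**
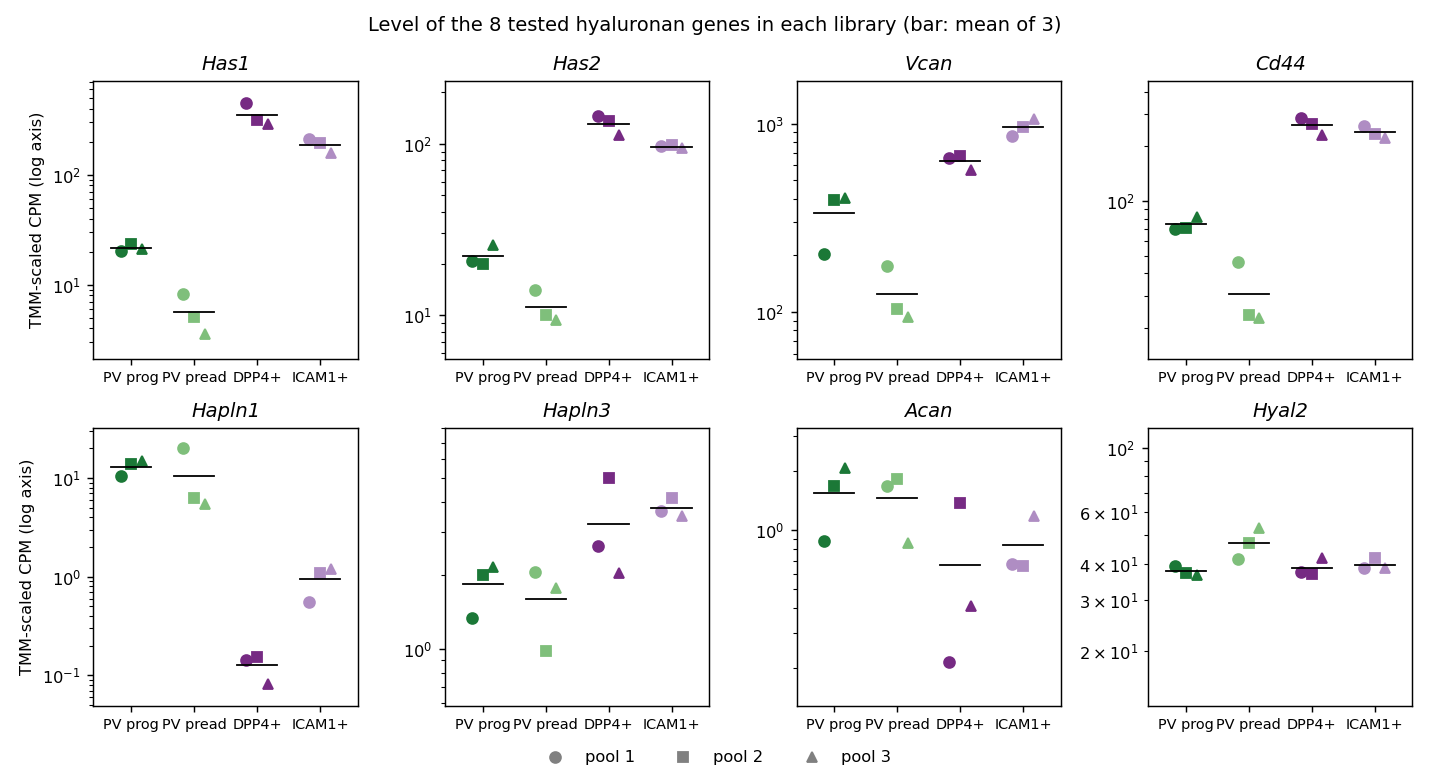
TMM-scaled CPM on a log axis for the 8 tested genes in each of the 12 libraries, with 1 panel per gene (PV prog, perivascular progenitors; PV pread, perivascular preadipocytes; DPP4+ and ICAM1+, the inguinal populations); marker shapes give the pool number and the bars the mean of 3 libraries. Has1, Has2, Cd44 and Vcan lie lower in all 6 perivascular libraries than in all 6 inguinal ones, Hapln1 lies higher in all 6, and Hyal2 lies between 36.7 and 52.9 CPM throughout.

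The 250 bases before the transcription start are shown for Has1, Vcan and Cd44, the members lower in perivascular cells in both depot comparisons for which RefSeq start sites (GRCm38.p6) were at hand and the window lies outside exons. They read 5′ to 3′ on the strand of the gene, which is the minus strand for all 3, and capitals mark letters that match a searched motif on either strand. The Has1 window (chr17:17855206-17855438) is 233 bases long, because the 17 bases nearest the RefSeq start fall in an annotated exon. The Vcan window is chr13:89742513-89742762 and that of Cd44 is chr2:102901666-102901915.
Has1: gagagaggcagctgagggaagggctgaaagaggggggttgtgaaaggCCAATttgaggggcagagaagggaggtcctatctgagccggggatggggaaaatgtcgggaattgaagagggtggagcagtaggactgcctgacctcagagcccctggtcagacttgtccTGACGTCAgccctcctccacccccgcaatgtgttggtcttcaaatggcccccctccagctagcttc
Vcan: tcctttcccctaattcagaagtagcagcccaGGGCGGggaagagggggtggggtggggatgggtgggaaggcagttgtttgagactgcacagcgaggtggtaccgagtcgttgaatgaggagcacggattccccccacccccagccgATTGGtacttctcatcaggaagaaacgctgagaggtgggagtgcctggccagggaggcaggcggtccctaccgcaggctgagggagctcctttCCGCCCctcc
Cd44: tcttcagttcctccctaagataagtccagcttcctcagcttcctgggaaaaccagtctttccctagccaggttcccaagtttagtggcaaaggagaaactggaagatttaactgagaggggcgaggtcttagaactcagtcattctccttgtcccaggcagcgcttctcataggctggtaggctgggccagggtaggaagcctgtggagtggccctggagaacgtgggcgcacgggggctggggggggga
The motifs searched, each on both strands, were the core promoter motif TATAAA, the NF-Y motif CCAAT, the Sp1 motif GGGCGG, the AP-1 motif TGANTCA and the CREB motif TGACGTCA, the last added after the Has1 sequence was seen. No 2 matches in these windows overlap. CCAAT occurs once in the Has1 and once in the Vcan window (as ATTGG), and in 33.8% of 32817 mouse promoter windows of the same length. GGGCGG, the GC box, occurs at 2 places in the Vcan window (1 of them as CCGCCC) and in 32.7% of all windows. TGACGTCA, the full cyclic AMP response element, occurs in the Has1 window and in 1.55% of all windows. None of the 5 motifs occurs in the Cd44 window, which says only that these letters are absent there.

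Has1, a synthase of the plasma membrane, lies on the minus strand of chromosome 17 (17843323 to 17855205, mm10). It had 20.03, 23.6 and 20.9 CPM in the perivascular progenitor libraries 1 to 3, and 447, 314 and 292 CPM in the DPP4+ progenitors. In the preadipocytes it had 8.16, 5.09 and 3.54 CPM in perivascular and 213, 194 and 158 CPM in inguinal fat. No library of one depot reached the level of the other depot, and the DPP4+ mean was 16.3 times the perivascular progenitor mean. The log2 fold change of perivascular against inguinal cells was -4.03 ± 0.28 (SE; adjusted p = 8.48e-07) in progenitors and -5.07 ± 0.30 (adjusted p = 2.5e-07) in preadipocytes. These values stood at the 0.525 and 0.175 percentile of all tested genes.

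Has1 was also lower in preadipocytes than in progenitors. In perivascular fat it fell by 1.94 ± 0.27 on the log2 scale (adjusted p = 0.000476), with no overlap between the libraries. In inguinal fat it fell by 0.90 ± 0.25 (adjusted p = 0.0258), from a mean of 351 to 188 CPM. The inguinal call was lost without DPP4+ library 1 (-0.68, adjusted p = 0.127), without ICAM1+ library 1 (-0.99, 0.0539), 2 (-0.91, 0.0791) or 3 (-0.78, 0.116), and when libraries were scaled by their totals (-0.52, 0.135). The order of the groups was therefore DPP4+ progenitors, ICAM1+ preadipocytes, perivascular progenitors and perivascular preadipocytes, and each step in it was called.

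Has2, the synthase needed for the cardiac jelly of the embryonic heart, lies on chromosome 15 (56665627 to 56694539, minus strand). Its levels were 20.6, 19.8 and 25.7 CPM in perivascular progenitors and 14.1, 10.02 and 9.33 CPM in perivascular preadipocytes. In the inguinal cells they were 145, 135.5 and 113 CPM in DPP4+ progenitors and 97.0, 97.8 and 94.0 CPM in ICAM1+ preadipocytes. Again all 6 perivascular libraries lay below all 6 inguinal ones. The log2 fold change between depots was -2.57 ± 0.18 in progenitors (adjusted p = 8.92e-07) and -3.11 ± 0.19 in preadipocytes (adjusted p = 2.71e-07). Between stages Has2 fell by 0.98 ± 0.18 in perivascular fat (adjusted p = 0.00177), while the inguinal difference of -0.45 ± 0.17 missed the threshold (adjusted p = 0.0971). That inguinal difference stayed uncalled in 17 of 21 alternative fits and passed in the others.

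Of the exon length of Has2, 4.30% overlaps the antisense gene Has2os, and strand use in counting was not given in the sources used here, so reads in those 182 bases could belong to either gene. The level of each gene may thus hold reads of the other. As counted, Has2os was at 3.78 CPM in perivascular and 18.7 CPM in DPP4+ progenitors (log2 fold change -2.31, adjusted p = 3.47e-06), and at 1.53 and 7.47 CPM in the preadipocytes (-2.28, adjusted p = 6.09e-06). Has3 gave 21 counts in all in each perivascular group, 8 in the DPP4+ and 15 in the ICAM1+ cells. With no filter on low counts, its difference between depots had an adjusted p of 0.482 in progenitors and 0.598 in preadipocytes, and any change was not detectable at this depth. Has3 shares 5.52% of its exon length with Chtf8 on the other strand.

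Per kilobase of exon, the summed level of the 3 synthases was 109 ± 21.9 CPM per kb (SD, n = 3) in the DPP4+ and 64.5 ± 6.65 in the ICAM1+ cells, whereas perivascular progenitors had 10.02 ± 0.722 and their preadipocytes 3.92 ± 1.11. Has1 held 71.2 ± 2.89% of that sum in the DPP4+ progenitors and 64.5 ± 3.12% in the ICAM1+ preadipocytes. In perivascular progenitors its share was 47.6 ± 4.76% and in perivascular preadipocytes 30.8 ± 4.70%, where Has2 held 67.7 ± 4.09%. The lowest Has1 share in an inguinal library (61.1%) lay above the highest in a perivascular one (52.5%). Has3 held at most 2.20% in any library.

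**Figure D2:**
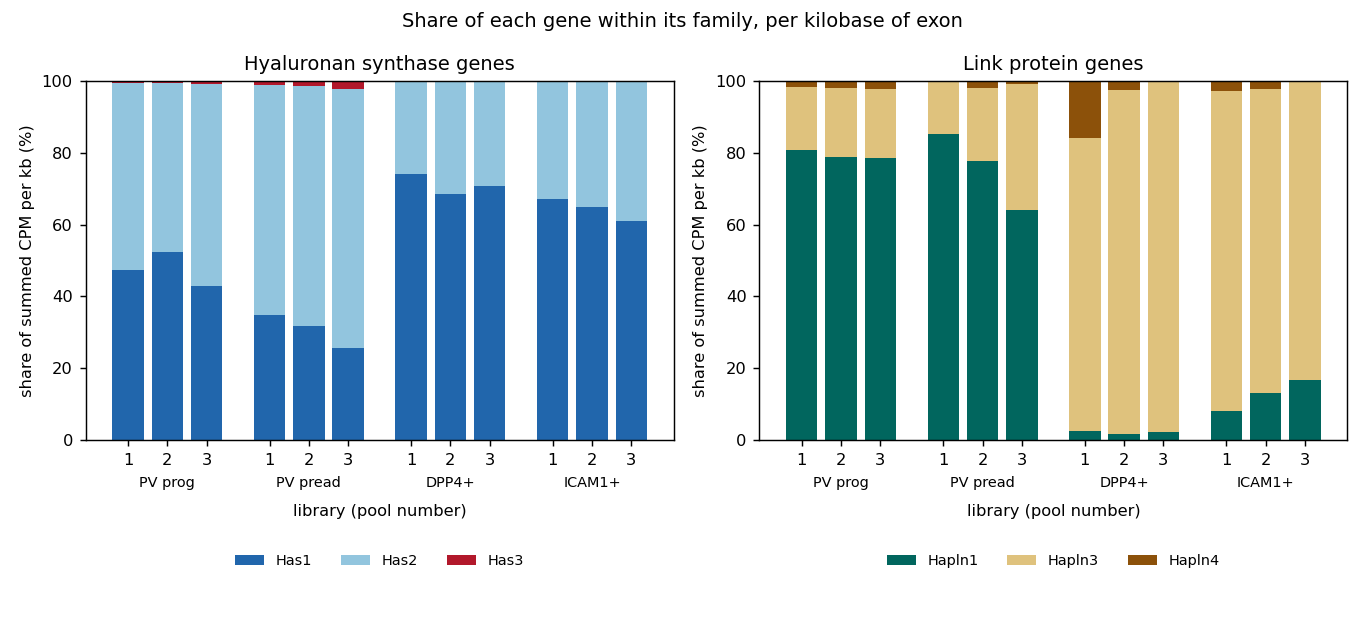
Share, in percent, of the summed CPM per kb of the 3 synthase genes (left) and the 3 link protein genes (right) in each of the 12 libraries, with the pool number below each bar. Has1 holds 61.1 to 74.2% of the synthase sum in inguinal libraries and 25.7 to 52.5% in perivascular ones, and Hapln1 holds at least 64.2% of the link protein sum in perivascular libraries and at most 16.8% in inguinal ones.

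Hapln1, the link protein first known from cartilage and heart valves, went the other way. It lies on the plus strand of chromosome 13 (89539796 to 89611652). The perivascular progenitors had 10.4, 13.9 and 14.9 CPM, from 202, 242 and 275 counts, and the DPP4+ progenitors 0.143, 0.152 and 0.0820 CPM, from 2, 2 and 1 counts. Perivascular preadipocytes had 20.1, 6.26 and 5.47 CPM and ICAM1+ preadipocytes 0.552, 1.08 and 1.18 CPM. Library 1 of the perivascular preadipocytes stood far above libraries 2 and 3, yet every perivascular library lay above every inguinal one. The log2 fold change was 6.61 ± 0.67 between progenitors (adjusted p = 1.53e-05) and 3.47 ± 0.49 between preadipocytes (adjusted p = 0.000169), and both calls held in 21 of 21 alternative fits. Without perivascular preadipocyte library 1 the difference between preadipocytes was smaller (2.55, adjusted p = 3.26e-05). Between progenitors this placed Hapln1 at the 99.9 percentile of all tested genes, though the DPP4+ level rests on 5 counts.

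Between stages Hapln1 did not pass the test in perivascular fat (log2 fold change -0.30 ± 0.42, adjusted p = 0.612), where the libraries overlapped. Without perivascular preadipocyte library 1 it was called lower in preadipocytes (-1.19, adjusted p = 0.00541). In inguinal fat it was called higher in ICAM1+ preadipocytes (2.84 ± 0.78, adjusted p = 0.0222), from 5 counts to 60. That call was lost without DPP4+ library 1 (adjusted p = 0.0709), 2 (0.0629) or 3 (0.0784) and without ICAM1+ library 2 (0.0616) or 3 (0.0615), with log2 fold changes from 2.65 to 2.99.

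Hapln3, a more widely expressed link protein (chromosome 7, 79115102 to 79131018, minus strand), had 1.34, 2.02 and 2.16 CPM in perivascular progenitors and 2.64, 5.01 and 2.05 CPM in DPP4+ progenitors. The 2 groups overlapped, and the difference did not pass the test (-0.82 ± 0.37, adjusted p = 0.132). In preadipocytes it had 2.07, 0.978 and 1.77 CPM in perivascular against 3.68, 4.14 and 3.50 CPM in inguinal fat, and was called lower (-1.23 ± 0.37, adjusted p = 0.016). This call was lost without perivascular preadipocyte library 2 (-0.97, adjusted p = 0.0705) and without ICAM1+ library 2 (-1.16, adjusted p = 0.053). Hapln4, the brain link protein, gave 12 counts in progenitors and 3 in preadipocytes of perivascular fat, 10 in the DPP4+ and 5 in the ICAM1+ cells, and it had 0 counts in 3 of the 12 libraries. Of the summed link protein level per kb, Hapln1 held 79.4 ± 1.16% in the progenitors and 75.7 ± 10.7% in the preadipocytes of perivascular fat, but 2.23 ± 0.458% in the DPP4+ and 12.6 ± 4.42% in the ICAM1+ cells, where Hapln3 held most.

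Vcan, which encodes the main proteoglycan of loose connective tissue, lies on the minus strand of chromosome 13 (89655312 to 89742509), tail to tail with Hapln1 at a distance of 43.7 kb and with no annotated gene between them. It had 204, 396 and 402.5 CPM in perivascular progenitors and 655, 677 and 566 CPM in DPP4+ progenitors. The preadipocytes had 175, 103.5 and 94.5 CPM in perivascular and 861, 961 and 1053 CPM in inguinal fat. All perivascular libraries were below all inguinal ones, and perivascular progenitor library 1 was well below the other libraries of its group.

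Between preadipocytes the Vcan difference was large (-2.95 ± 0.29, adjusted p = 1.52e-05). Between progenitors it was smaller (-0.92 ± 0.27, adjusted p = 0.0263), and its call was lost with the replicate block, which pairs libraries of the same pools (-0.92, adjusted p = 0.0504), and when libraries were scaled by their totals (-0.50, adjusted p = 0.149). It also missed the threshold without perivascular progenitor library 1 (-0.67, adjusted p = 0.0671) and without DPP4+ library 1 (-0.89, 0.0725) or 2 (-0.87, 0.0781). Within perivascular fat Vcan fell from progenitors to preadipocytes (-1.43 ± 0.28, adjusted p = 0.00262). Within inguinal fat it was higher in all 3 ICAM1+ libraries than in the DPP4+ libraries, but the difference of 0.60 ± 0.27 did not pass the test (adjusted p = 0.161). It stayed uncalled in 17 of 21 alternative fits and passed in the others.

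Acan, the cartilage proteoglycan, is the neighbour of Hapln3 on chromosome 7 (79053483 to 79115099, plus strand), 2 bases away. It was low in all groups, at 0.858 to 2.06 CPM in perivascular and 0.214 to 1.37 CPM in inguinal libraries, and was called in none of the comparisons. Between progenitors the log2 fold change was 1.2 ± 0.59 (adjusted p = 0.161), and it passed the threshold without DPP4+ library 2 (2.29, adjusted p = 0.0214). Per kb, Vcan held at least 96.7% of the sum of both proteoglycans in every library. Versican and Hapln1 thus differed between depots in opposite directions although they are neighbours, and Hapln3 and Acan likewise had fold changes of opposite sign in both depot comparisons, of which only the Hapln3 difference between preadipocytes was called.

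**Figure D3:**
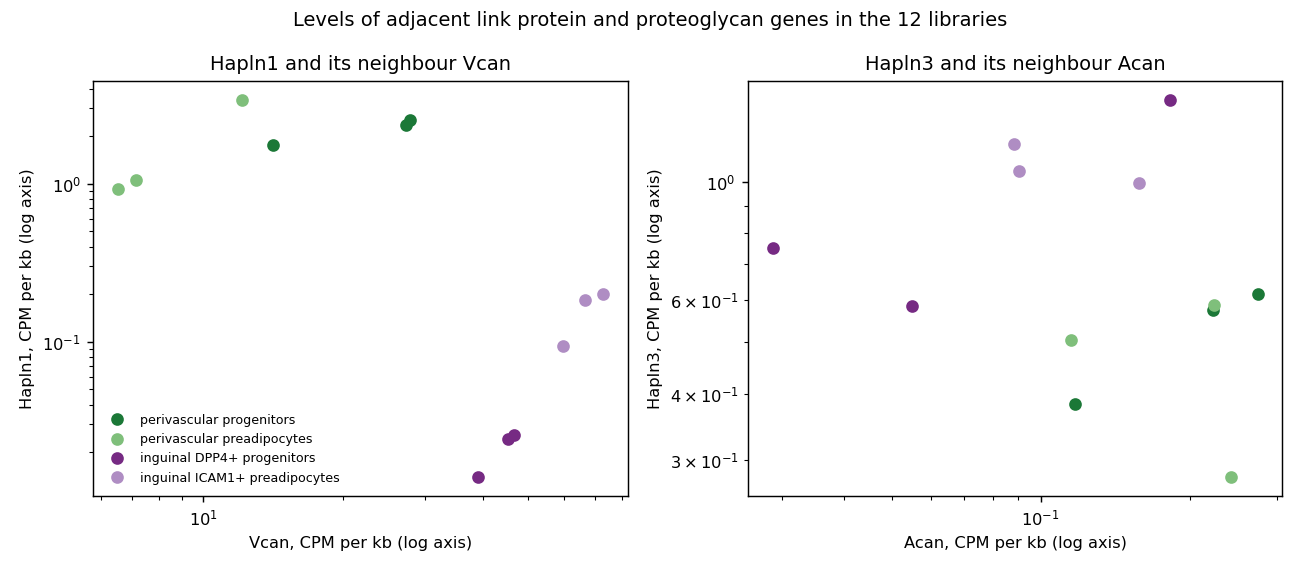
Level of Hapln1 against its neighbour Vcan (left) and of Hapln3 against its neighbour Acan (right), in CPM per kb on log axes, with 1 point per library coloured by group. Inguinal libraries lie at high Vcan and low Hapln1 (up to 0.200 CPM per kb) and perivascular ones at lower Vcan and higher Hapln1 (at least 0.927 CPM per kb), while the Hapln3 and Acan points of the groups lie closer together.

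Cd44, the main cell surface receptor of hyaluronan, lies on chromosome 2 (102811141 to 102901665, minus strand). The perivascular levels were 70.5, 71.2 and 82.0 CPM in progenitors and 46.0, 23.5 and 22.6 CPM in preadipocytes. The inguinal levels were 286, 265 and 231 CPM in the DPP4+ and 259, 235 and 223.5 CPM in the ICAM1+ cells. The depots did not overlap, whereas the inguinal groups overlapped each other. The log2 fold change between depots was -1.81 ± 0.24 in progenitors (adjusted p = 0.00013) and -2.96 ± 0.25 in preadipocytes (adjusted p = 4.02e-06), and both calls held in 21 of 21 alternative fits. Cd44 fell by 1.28 ± 0.24 from perivascular progenitors to preadipocytes (adjusted p = 0.002), and the inguinal step was -0.13 ± 0.23 (adjusted p = 0.783).

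Hyal2, a hyaluronidase anchored to the cell surface, lies on chromosome 9 (107567945 to 107572779, plus strand) and had the flattest profile. The perivascular means were 37.6 ± 1.36 CPM in progenitors and 47.2 ± 5.63 in preadipocytes, and the inguinal means 38.6 ± 2.71 in the DPP4+ and 39.7 ± 1.74 in the ICAM1+ cells. Its log2 fold change between depots was -0.04 ± 0.13 in progenitors (adjusted p = 0.867) and 0.25 ± 0.13 in preadipocytes (adjusted p = 0.13). Between the perivascular stages the libraries did not overlap (41.6 to 52.9 against 36.7 to 39.2 CPM), but the difference of 0.33 ± 0.13 missed the threshold (adjusted p = 0.0693). It passed without perivascular preadipocyte library 1 (0.38, adjusted p = 0.0231). Per kb, Hyal2 (11.4 CPM per kb) stood beside Cd44 (11) and Has2 (5.20) in perivascular progenitors, and below Cd44 (38.5) and Has2 (30.9) in DPP4+ progenitors, where it had 11.7 CPM per kb.

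The libraries of the groups did not overlap for 5 of the 8 genes between progenitors and for 6 between preadipocytes, beside 42.3% and 57.2% of all tested genes. For the stages this held for 5 genes in perivascular and 4 in inguinal fat, beside 40.8% and 43.8%.

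**Figure D4:**
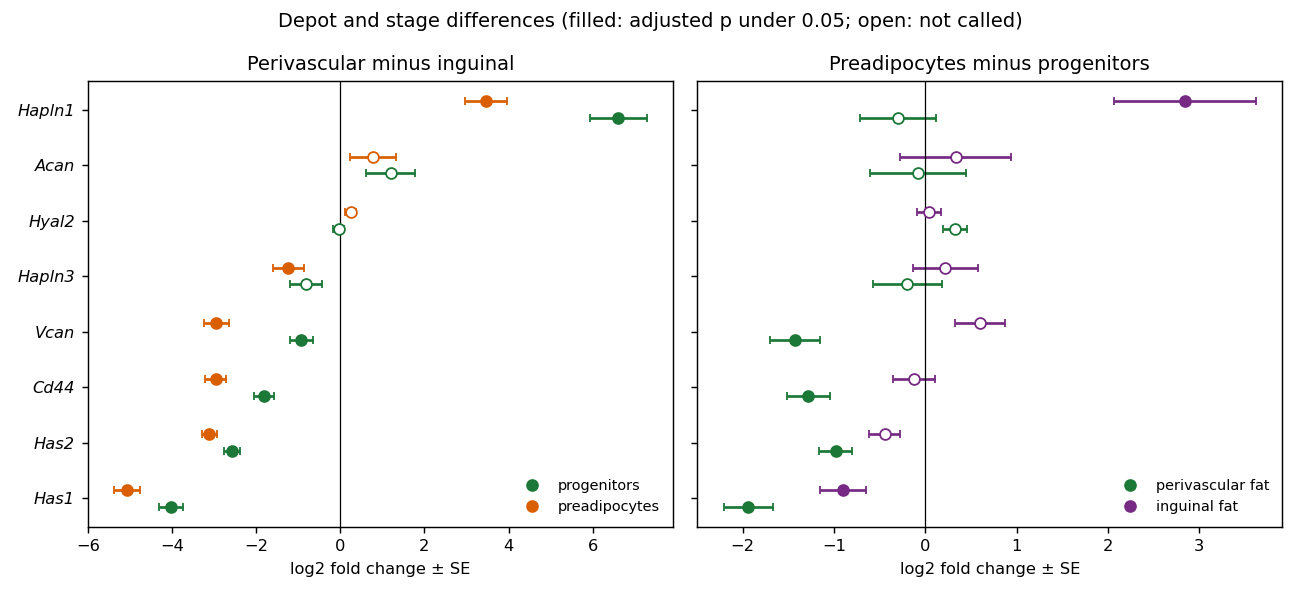
Log2 fold changes with SE of the 8 tested genes between depots (left; perivascular minus inguinal, in progenitors and in preadipocytes) and between stages (right; preadipocytes minus progenitors, in each depot); filled points passed an adjusted p of 0.05. Has1 has the lowest value in both depot comparisons (-4.03 and -5.07) and Hapln1 the highest (6.61 and 3.47), and in this fit the Vcan and Cd44 stage differences are called in perivascular fat alone.

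The stage difference itself was tested between the depots as an interaction, which 15.0% of all tested genes passed (8.66% with a lower value in perivascular fat) and which 3 of the 8 members passed, all with a lower value in perivascular fat. Vcan differed most clearly (-2.03 ± 0.39, adjusted p = 0.00484), since it fell with stage in perivascular fat and had a value above 0 in inguinal fat, and its call held in 20 of 20 alternative fits. Hapln1 had an interaction of -3.15 ± 0.89 (adjusted p = 0.0335) and Cd44 of -1.16 ± 0.33 (adjusted p = 0.0341). The inguinal part of the Hapln1 value rests on 5 counts in the DPP4+ cells. The Hapln1 interaction was -4.03 without perivascular preadipocyte library 1 (adjusted p = 0.000265). It missed the threshold without perivascular progenitor library 2 (adjusted p = 0.0614) or 3 (0.0656), perivascular preadipocyte library 2 (0.0606), DPP4+ library 1 (0.0758), 2 (0.0682) or 3 (0.0905) and ICAM1+ library 2 (0.0756) or 3 (0.0759). The Cd44 interaction did so without perivascular progenitor library 2 (0.0614) or 3 (0.0804), perivascular preadipocyte library 2 (0.0869) or 3 (0.0632), DPP4+ library 1 (0.0565), 2 (0.0644) or 3 (0.0867) and ICAM1+ library 1 (0.0791), 2 (0.0717) or 3 (0.0635). Has1 missed the threshold (-1.04 ± 0.36, adjusted p = 0.0724) and passed it with the replicate block (-1.13, adjusted p = 0.0357), without perivascular progenitor library 1 (-1.12, 0.0475) and without perivascular preadipocyte library 1 (-1.44, 0.00373). Has2 had -0.54 ± 0.25 (adjusted p = 0.157) and passed without the latter library (-0.77, 0.0188).

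Genes that make the sugar precursors were lower in perivascular cells too. Of 8 such genes tested, 6 were called lower and 0 higher in each depot comparison, with a median log2 fold change of -1.44 between progenitors and -0.80 between preadipocytes. Over all tested genes 11.8% and 21.4% were called lower. Gfpt2, an amidotransferase that opens the hexosamine pathway, was at 382 ± 24.1 CPM in perivascular and 1654 ± 106 in DPP4+ progenitors (-2.12, adjusted p = 7.79e-06), and at 44.3 ± 13.4 and 302 ± 19.6 in the preadipocytes (-2.77, adjusted p = 1.31e-06). Ugdh, which makes UDP-glucuronic acid, was at 345 ± 18.0 against 1398 ± 102.5 CPM in progenitors (-2.02, adjusted p = 6.49e-07) and at 123 ± 9.40 against 501 ± 24.3 in preadipocytes (-2.03, adjusted p = 7.11e-07). Uap1, which makes UDP-N-acetylglucosamine, was 1.77 lower on the log2 scale in perivascular progenitors (-1.77, adjusted p = 2.68e-06), and Gfpt1 was lower in perivascular preadipocytes (-1.18, adjusted p = 0.00164).

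The same list was also called lower in preadipocytes than in progenitors for 6 of 8 genes in each depot, with 0 called higher, beside 16.1% of all genes called lower in perivascular and 8.61% in inguinal fat. Gfpt2 fell by 3.11 in perivascular (adjusted p = 3.9e-06) and by 2.45 in inguinal fat (adjusted p = 3.88e-06). Ugdh had log2 fold changes of -1.49 (adjusted p = 2.93e-05) and -1.48 (adjusted p = 1.01e-05). These enzymes also supply other sugar chains, so their levels are not specific to hyaluronan.

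Among 13 tested genes for other receptors and binders of hyaluronan, 4 were called higher and 3 lower in perivascular progenitors, and 4 higher and 2 lower in perivascular preadipocytes. These counts stand beside 24.9% and 44.9% of all genes called, and the preadipocyte count is near that share. Tnfaip6, which encodes TSG-6, a secreted protein that moves heavy chains onto hyaluronan, was at 68.8 ± 4.18 CPM in perivascular and 681 ± 99.5 in DPP4+ progenitors (-3.31, adjusted p = 1.52e-07), and at 37.8 ± 6.17 and 732 ± 95.8 in the preadipocytes (-4.28, adjusted p = 4.55e-08). Itih5, of the heavy chain family, was lower as well (-1.62, adjusted p = 1.39e-05, and -2.23, adjusted p = 1.46e-06). Hmmr, a hyaluronan binder that also acts on the mitotic spindle, was higher, at 31.5 ± 1.41 against 4.68 ± 2.19 CPM in progenitors (2.74, adjusted p = 2.39e-05) and 63.1 ± 11.3 against 15.4 ± 2.15 in preadipocytes (2.03, adjusted p = 0.000125). Habp4, mainly an intracellular RNA-binding protein despite its name, was higher in perivascular preadipocytes (2.21, adjusted p = 0.0102). The other called binders, named here after their values were seen, were Itih2 and Itih4 (higher in both comparisons), Layn (higher in progenitors) and Stab1 (lower in progenitors).

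Of 7 tested genes of hyaluronan turnover, 1 was called higher in perivascular progenitors and 2 lower in perivascular preadipocytes, beside 24.9% and 44.9% of all genes called in either direction. Hyal1, the lysosomal hyaluronidase, was at 11.1 ± 1.23 against 4.16 ± 1.09 CPM in progenitors (1.42, adjusted p = 0.00193). Cemip2, a hyaluronan-degrading protein of the cell surface, was at 8.68 ± 3.26 against 23.4 ± 2.17 CPM in preadipocytes (-1.43, adjusted p = 0.000763), and Gusb, a lysosomal glucuronidase, was lower there by a smaller amount (-0.52, adjusted p = 0.0446). Of 7 proteases that cleave versican or aggrecan, 2 were called higher and 2 lower in perivascular progenitors, and 0 higher and 4 lower in perivascular preadipocytes, beside the same shares of all genes (21.4% lower in preadipocytes). Adamts1 was lower in both comparisons (-1.11, adjusted p = 0.00655, and -2.04, adjusted p = 8.74e-05), as was Adamts5 (-1.42, adjusted p = 0.000605, and -1.57, adjusted p = 0.000228). Adamts9 had the opposite sign in the 2 comparisons (0.999, adjusted p = 0.0209, and -1.25, adjusted p = 0.00353). Adamts4 was lower in preadipocytes (-1.68, adjusted p = 0.000419), and Adamts20, named after its value was seen, was higher in progenitors (1.998, adjusted p = 0.0124).

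Of 20 tested genes that build chondroitin sulphate, the sugar chains that versican and aggrecan carry, 3 were called higher and 4 lower in perivascular progenitors and 2 higher and 4 lower in perivascular preadipocytes, beside 24.9% and 44.9% of all genes called. The list medians were -0.10 in both comparisons, close to the medians over all genes. Chst3 (2.42, adjusted p = 0.00418) and Csgalnact1 (1.27, adjusted p = 0.00325) were higher and Chst7 lower (-2.44, adjusted p = 0.00197) in perivascular progenitors. Dsel, an epimerase that turns chondroitin into dermatan, was lower in both perivascular populations (-1.21, adjusted p = 0.00271, and -1.54, adjusted p = 0.000387). Dse, its homologue, was likewise called lower in both, and B3galt6 was higher in perivascular preadipocytes (3.08, adjusted p = 0.0022). The others called, named after their values were seen, were Chsy1 (higher) and Chst15 (lower) in progenitors, and Chst15 (higher), Chst11 and Chpf2 (lower) in preadipocytes.

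**Figure D5:**
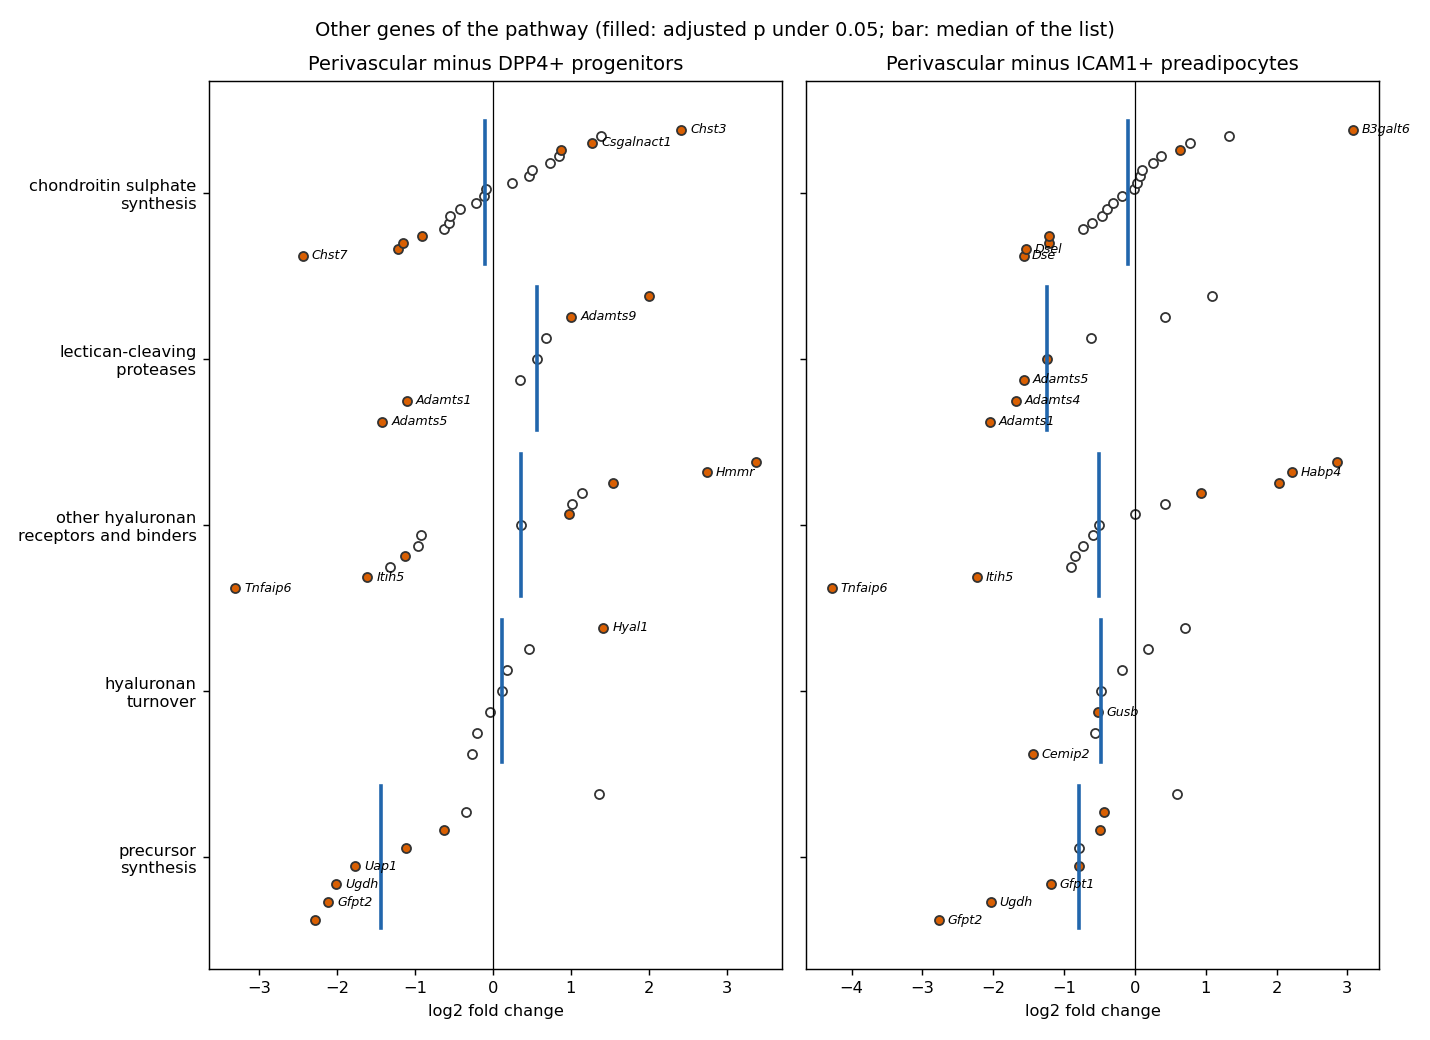
Log2 fold change of each tested gene of the 5 pathway lists in perivascular against DPP4+ progenitors (left) and perivascular against ICAM1+ preadipocytes (right); filled points passed an adjusted p of 0.05, bars give the list medians, and labels name the genes picked by the naming rule. The precursor list lies below 0 apart from Uap1l1, which was not called, while the other lists hold genes on both sides.

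Several marker lists of other cell types and stages also differed between the groups, and their part in these differences was not tested. Their counts stand beside 24.9% of all genes called between progenitors and 44.9% between preadipocytes. The 8 fat progenitor markers include Dpp4, on which the inguinal progenitors were sorted, so its calls against DPP4+ cells follow from that sort. Of the 8 markers, 7 were called lower in perivascular cells in both depot comparisons, with median log2 fold changes of -2.08 and -1.70. They summed to 3175 to 3669 CPM in perivascular against 11030 to 12430 in DPP4+ progenitors, and to 398.5 to 988 against 1713 to 1966 CPM in the preadipocytes. With stage 8 of the 8 were called lower in perivascular and 7 in inguinal fat. Over all tested genes 32.9% were called with stage in perivascular fat (16.1% lower) and 17.9% in inguinal fat (8.61% lower). Perivascular preadipocyte library 1, the highest of its group for Has1, Has2, Cd44, Vcan and Hapln1, also had the highest progenitor sum (988 CPM against 528.5 and 398.5) and the lowest sum of 8 preadipocyte markers (4558 CPM against 7094 and 7605). These preadipocyte markers include Icam1, on which the inguinal preadipocytes were sorted, so its calls against ICAM1+ cells follow from that sort. Of these markers, perivascular progenitors had 4 called higher and 1 lower, and perivascular preadipocytes 2 higher and 5 lower (medians 0.78 and -1.08). With stage, 3 were called higher and 2 lower in perivascular fat, and 7 higher and 0 lower in inguinal fat (medians 0.11 and 2.26). In the interaction 5 were called lower and 0 higher (median -1.42), beside 15.0% of all genes.

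The summed level of 10 mesothelial markers was 152 to 275 CPM in perivascular progenitors and 37.7 to 41.7 CPM in DPP4+ progenitors, with 7 of 10 called higher. In the preadipocytes it was 38.9 to 89.0 against 31.2 to 46.9 CPM, with 7 called higher and 3 lower. Msln was at 57.3 ± 16.4 CPM in perivascular and 0.953 ± 0.439 in DPP4+ progenitors. The 12 cartilage markers summed to 82.2 to 95.01 CPM in perivascular and 35.2 to 47.3 CPM in DPP4+ progenitors (4 higher, 1 lower), and to 94.7 to 175 against 60.1 to 77.3 CPM in the preadipocytes (4 higher, 2 lower, near the 44.9% of all genes called). Col2a1, their defining collagen, had 0.0516 to 0.864 CPM in perivascular against 3.49 to 5.82 in DPP4+ progenitors, and 0.246 to 2.93 against 0.310 to 0.463 CPM in the preadipocytes. Sox9, also a defining marker, was at 20.7 ± 13.5 against 16.1 ± 5.41 CPM in progenitors and 50.9 ± 3.96 against 23.3 ± 1.88 in preadipocytes. In perivascular preadipocyte libraries 1 to 3, where Hapln1 had 20.1, 6.26 and 5.47 CPM, the cartilage sums were 175, 113 and 94.7 CPM and the mesothelial sums 74.1, 89.0 and 38.9 CPM. In perivascular progenitor libraries 1 to 3, Hapln1 had 10.4, 13.9 and 14.9 CPM. There the cartilage sums were 85.3, 82.2 and 95.01 CPM and the mesothelial sums 152, 275 and 230 CPM. The part of either list in the Hapln1 level was not tested.

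The summed levels of 4 other lists were higher in the inguinal cells in both depot comparisons, the direction of Has1, Has2, Cd44 and Vcan. The 6 Schwann and neural markers summed to 73.5 to 154 CPM in DPP4+ and 29.6 to 31.2 CPM in perivascular progenitors (1 called higher and 3 lower in perivascular cells), and to 186 to 211 against 17.4 to 29.0 CPM in the preadipocytes (5 lower, median log2 fold change -3.23). Sox10, their defining factor, was at 1.27 ± 0.743 against 0.285 ± 0.121 CPM in progenitors and 3.43 ± 0.935 against 0.270 ± 0.153 in preadipocytes. The 5 mast cell markers summed to 49.1 to 259 CPM in DPP4+ and 7.07 to 10.1 CPM in perivascular progenitors, and to 55.8 to 94.9 against 16.9 to 23.2 CPM in preadipocytes, with 4 of 5 lower in perivascular cells in both. The 10 haematopoietic markers summed to 31.9 to 107 against 8.66 to 18.9 CPM in progenitors (7 lower) and to 30.9 to 35.8 against 9.88 to 10.9 CPM in preadipocytes (5 lower).

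The 8 endothelial markers summed to 733 to 929 CPM in DPP4+ and 161 to 227 CPM in perivascular progenitors, and to 145.5 to 172 against 41.3 to 69.6 CPM in the preadipocytes, with 4 of 8 called lower in both. Tek made up most of these progenitor sums, at 684 ± 60.8 CPM in DPP4+ and 115 ± 20.6 CPM in perivascular progenitors. Of the others, Cdh5 was at 11.4 ± 5.10 against 3.97 ± 1.72 CPM and Kdr at 40.0 ± 24.2 against 13.3 ± 5.70 CPM, and the defining marker Pecam1 was at 38.6 ± 13.2 against 34.2 ± 7.66 CPM. Tek, Cdh5 and Kdr were named after their values were seen. DPP4+ library 2 had the highest sum of its group in all 4 of these lists. Of the 8 tested members, it had the highest Vcan, Hapln1, Hapln3 and Acan levels of its group, while library 1 had the highest Has1, Has2 and Cd44 levels and library 3 the highest Hyal2 level. In DPP4+ libraries 1 to 3 Hapln1 had only 2, 2 and 1 counts and Acan 3, 18 and 5, so the Hapln1 rank carries no weight. In every group each marker of these lists had counts.

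A list of 12 early-response genes, which rise when tissue is dissociated, was chosen after the values were seen. It summed to 3203 to 5968 CPM in perivascular and 6191 to 7446 CPM in DPP4+ progenitors, and to 3434 to 5834 against 8352 to 9394 CPM in the preadipocytes. Of its genes 7 were called lower in perivascular progenitors and 9 in perivascular preadipocytes, with 0 higher. Over all tested genes 24.9% were called between progenitors (11.8% lower) and 44.9% between preadipocytes (21.4% lower). Library 1 had the highest sum in both perivascular groups (5968 and 5834 CPM), and it also had the highest Has1, Has2, Cd44 and Vcan levels among the perivascular preadipocytes. Among perivascular progenitors library 1 had the lowest Has1, Vcan and Cd44 levels. The part of the early response in the hyaluronan genes was not tested.

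Over the 12 libraries, which fall into 4 groups so that a correlation largely restates the group levels, the genes most like each member were ranked by Pearson's r of log2 CPM among 11432 genes. For Has1 these included Tnfsf9 (r = 0.997) and Wsb1 (0.995), and for Has2 they were Wsb1 (0.997), Klf6 (0.996) and Tnfsf9 (0.995). Cd44 was most like Thbs1 (0.991), Agtr1a (0.991) and Wsb1 (0.991). Vcan was most like the collagen gene Col6a3 (0.989), Micall2 (0.987) and Cpeb4 (0.987), and Hapln1 was most like Cdh26 (0.976), Gas2 (0.976) and Hoxa3 (0.9755). Thbs1, which encodes the matrix protein thrombospondin 1, was at 115 CPM in progenitors and 46.4 in preadipocytes of perivascular fat, and at 704 in the DPP4+ and 634 in the ICAM1+ cells. Cdh26, a cadherin gene, was at 8.06, 6.67, 0.103 and 0.836 CPM in the same order. Has1 and Has2 themselves had r = 0.994, the highest between any pair of the 8 tested members.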

How the data were processed

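Raw gene counts deposited by the authors for 12 libraries were used. The submitters' processing notes name STAR 2.5.2a, DESeq2 1.26.0 and the mm10 build, while the sources used here do not give the counting tool, its annotation or strand use. As recorded in the labels' protocols, sorted cells from tissue digested with collagenase and dispase went into a SMART-Seq v4 ultra-low-input library kit. Counts carry no molecular identifiers. The perivascular progenitor columns of the count table are headed as early progenitors.

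Counts were analysed with edgeR 4.0.16 (R 4.3.3): filterByExpr with a minimum count of 10, which kept 18855 genes, TMM factors, and 1 quasi-likelihood model over all 12 libraries with 4 group means. Tests were two-sided, with Benjamini-Hochberg adjustment over all tested genes and calls at an adjusted p under 0.05. The 7 comparisons comprise both depot and both stage comparisons, 2 cross pairs used for the order of levels, and the interaction. Comparisons that share a group share its libraries. The fit was run on simulated counts with 200 genes changed 4-fold in perivascular progenitors alone. That run checked the code, in a simpler setting than that of these data. Exon lengths and coordinates come from GENCODE release 21, promoter sequences from RefSeq. Alternatives used DESeq2 1.42.0, limma-voom 3.58.1, other scalings and filters, a replicate block, and fewer libraries.

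Per the labels, libraries with the same number come from the same pools. The deviations of same-numbered libraries from their group means had a mean correlation of -0.015 over 18 pairs, against 0.009 over 36 pairs with different numbers. A replicate is a pool of mice.

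The genes, lists and alternatives were chosen with earlier results of these data known. Named genes are all 10 members; from each pathway list up to 3 called genes with the largest change per comparison and at least 5 CPM in the higher group; the 3 genes most correlated with each of 5 members (1 of them is not reported here); and the defining markers of lists that moved. Of these defining markers, Pdgfra, Upk3b, Wt1, Ptprc and Cpa3 are not reported here. Has2os was named for its overlap.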

Additional observations from a re-analysis of the deposited data

Results flagged for a closer look

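The change from progenitors to preadipocytes differed between perivascular and inguinal fat for 3 of the 8 tested genes, by the interaction term of the edgeR fit, which 15.0% of all tested genes passed. The interaction was -3.15 on the log2 scale for Hapln1 (adjusted p = 0.0335), -2.03 for Vcan (adjusted p = 0.00484) and -1.16 for Cd44 (adjusted p = 0.0341). A negative value means that the perivascular change lies below the inguinal one. For Vcan the perivascular change was -1.43 and the inguinal one 0.60, for Cd44 they were -1.28 and -0.13, and for Hapln1 -0.30 and 2.84. The inguinal Hapln1 change rests on 5 counts in the DPP4+ cells. The call held in 20 of 20 alternative fits for Vcan, 12 of 20 for Hapln1 and 10 of 20 for Cd44.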

How the results depend on the processing

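Of 1167 alternative values of the members, 1063 kept their direction and side of the threshold, 45 lost a call, 48 gained one and 11 changed sign. Has1, Has2, Cd44 and Hapln1 kept their calls in both depot comparisons under all 21 alternatives each.

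When libraries were scaled by their totals, the median over all genes moved to 0.48 between progenitors, 0.27 between preadipocytes, 0.12 between perivascular and 0.40 between inguinal stages, and -0.21 in the interaction. The share of calls that were higher moved from 52.5 to 83.7%, 52.2 to 66.5%, 51.1 to 66.3%, 52.0 to 82.6% and 42.4 to 23.3%. The genes called rose from 4687 to 7548 between progenitors and from 3384 to 5276 between inguinal stages. Hyal2 then changed sign between progenitors (0.40, adjusted p = 0.0316), Acan between perivascular stages (0.093) and Cd44 between inguinal stages (0.25). The cause was not tested.

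With 2 groups alone the genes called moved from 6198 to 2825 between perivascular and from 3384 to 5757 between inguinal stages. With limma-voom sample weights they moved to 10914, 6052, 5730 (from 2669, perivascular progenitors against ICAM1+ preadipocytes) and 8384 (from 2834, interaction), and the members called from 4 to 7 between perivascular stages, 2 to 4 between inguinal stages and 3 to 6 in the interaction. A further fit left out 3 libraries (DPP4+ 2, perivascular progenitor 1 and perivascular preadipocyte 1), chosen with earlier results of these data known. Of these, only perivascular progenitor 1 stood closest to a library of another group. In that fit the genes called were 9893 between perivascular stages, 4663 between perivascular progenitors and ICAM1+ preadipocytes and 7783 in the interaction. The members called were 4 between inguinal stages and 6 in the interaction. Vcan then had -2.08 between perivascular stages and -2.71 in the interaction, Hapln1 -4.34 in the interaction and 2.55 between preadipocytes, Hyal2 -0.017 between inguinal stages, and Acan passed between progenitors (2.57, adjusted p = 0.00569).

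Leaving out 1 library at a time gave 3916 to 8000 genes called between perivascular stages, 1523 to 3543 between perivascular progenitors and ICAM1+ preadipocytes, and 1666 to 5231 in the interaction. The members called ranged from 0 to 3 between inguinal stages and from 1 to 5 in the interaction. With all 12 libraries, 17.9% of all genes were called between inguinal stages and 15.0% in the interaction. Values near 0 changed sign: Hyal2 between progenitors ranged from -0.073 to 0.027, Acan from -0.416 to 0.191 between perivascular stages, -0.095 to 1.43 between inguinal stages and -1.50 to 0.016 in the interaction, and Hapln3 from -0.458 to 0.051 and -0.009 to 0.684 between the same stages.

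With the replicate block 4 members were called between progenitors (5 without it), 6 between preadipocytes, 4 and 2 between the stages and 4 in the interaction (3 without it), since Vcan was lost (adjusted p = 0.0504) and Has1 gained (adjusted p = 0.0357). It changed no other member's call in these 5 comparisons. Without the block, 24.9% of all genes were called between progenitors and 44.9% between preadipocytes. Between stages the shares were 32.9% in perivascular and 17.9% in inguinal fat, and 15.0% passed the interaction. Depth limits Has3 and Hapln4, with at most 10 counts in any library, and Hapln1 in DPP4+ progenitors, with at most 2.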
